A study of Mus musculus with 4 samples.

Results

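The kinesin genes of mouse are described here in CD4+ T cells that were cultured with TGFb1 alone or with TGFb1 plus progesterone, with the mitotic kinesins set against the transport kinesins. Every probe set of the array whose annotation names 1 gene with a symbol that starts with Kif and a digit, or with Kifc, was taken. This gave 104 probe sets of 41 genes, out of 34945 probe sets of 18193 genes. Each gene is represented by the probe set chosen by its highest mean over the 4 arrays, so levels are given as a description. The symbols alone chose the genes, but this gene family and its split by role were picked with earlier results of these data known. From the known roles of their proteins, 14 genes were called mitotic, 15 transport and 12 other or mixed. One further probe set, which names both Kif27 and another gene, was left out.

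Naive CD4+ T cells, which are helper lymphocytes that have not yet met antigen, came from mesenteric and peripheral lymph nodes and from spleen. All cells, the controls included, grew for 7 days with 10% serum, concanavalin A at 2.5 ug/ml, a plant lectin that drives T cells to divide, and human TGFb1 at 1 ng/ml, a cytokine that restrains T cell growth and steers the cells towards a regulatory state. The control group (2 arrays) received nothing more, and the other group (2 arrays) also received progesterone, a steroid hormone, at 2000 ng/ml. No label states the strain, age or sex of the mice, whether animals were pooled, or that replicates came from separate cultures, so the p-values rest on the spread among these samples alone, and that spread may be technical.

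Kinesins are motor proteins that turn the energy of ATP into movement along microtubules or into the removal of tubulin from microtubule ends. Mitotic kinesins push the spindle poles apart, move chromosomes and build the midzone at which the daughter cells separate, and dividing cells make most of them mainly from late S phase to mitosis. Transport kinesins carry vesicles, endosomes, mitochondria and RNA in dividing and resting cells alike, and in T cells such motors serve the traffic of granules and receptors.

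The arrays differed in brightness. Their trimmed mean signals were 154.5 and 145.4 with TGFb1 alone, against 137.8 and 107.7 with progesterone, and they were quantile normalised. Correlations across the 10501 genes tested, which are no independent replicates, were 0.982 and 0.985 within groups and 0.937 to 0.961 between groups. Sex-linked genes differed between the groups as well. Xist, the RNA that female cells use to silence one of their X chromosomes, had deposited signals of 9.52 and 9.70 with TGFb1 alone and of 1390 and 825 with progesterone. Eif2s3y, a Y-linked gene, had 689 and 727 against 4.25 and 0.492. The effect of progesterone and any effect of the animals' sex or identity therefore cannot be told apart in these arrays. In bulk RNA, fewer cells that make a transcript and less of it per cell cannot be told apart either.

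Mitotic kinesin genes were lower with progesterone, and no transport kinesin gene passed the test. A gene was tested when its mean level exceeded that of the median probe set, a log2 level of 5.32, which left 29 of the 41 kinesin genes. All log2 differences are progesterone minus TGFb1 alone, of log2(signal + 16), a scale that shrinks the differences of dim genes. Errors are standard errors from limma, with n = 2 per group. Calls need an adjusted p under 0.05, with Benjamini-Hochberg adjustment over all 10501 genes. Of the 10 mitotic kinesin genes tested, 10 fell, whereas 5.17% of all genes tested fell. Of the 13 transport kinesin genes tested, 0 passed in either direction in limma. Of all genes tested 8.16% did, and 0 among 13 is near that share. Of the 13 transport genes, 3 had an unadjusted p under 0.05, all of them higher with progesterone. The median log2 difference was -2.07 over the 10 mitotic genes, -0.09 over the 13 transport genes and 0.02 over all genes tested. With the values as deposited, where the median of all genes was -0.22, the medians were -2.26 for mitotic and -0.11 for transport genes. With each array centred on its median, where that of all genes was -0.34, they were -2.38 and -0.23. By group mean, all 10 mitotic genes lay above the level limit in both groups, so none was tested only because it was bright in 1 group. Kif18a did so narrowly, at 5.33 with progesterone. Progesterone replicate 2 lay under the limit for Kif18a (5.10) and Kif2c (5.20).

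**Figure D1:**
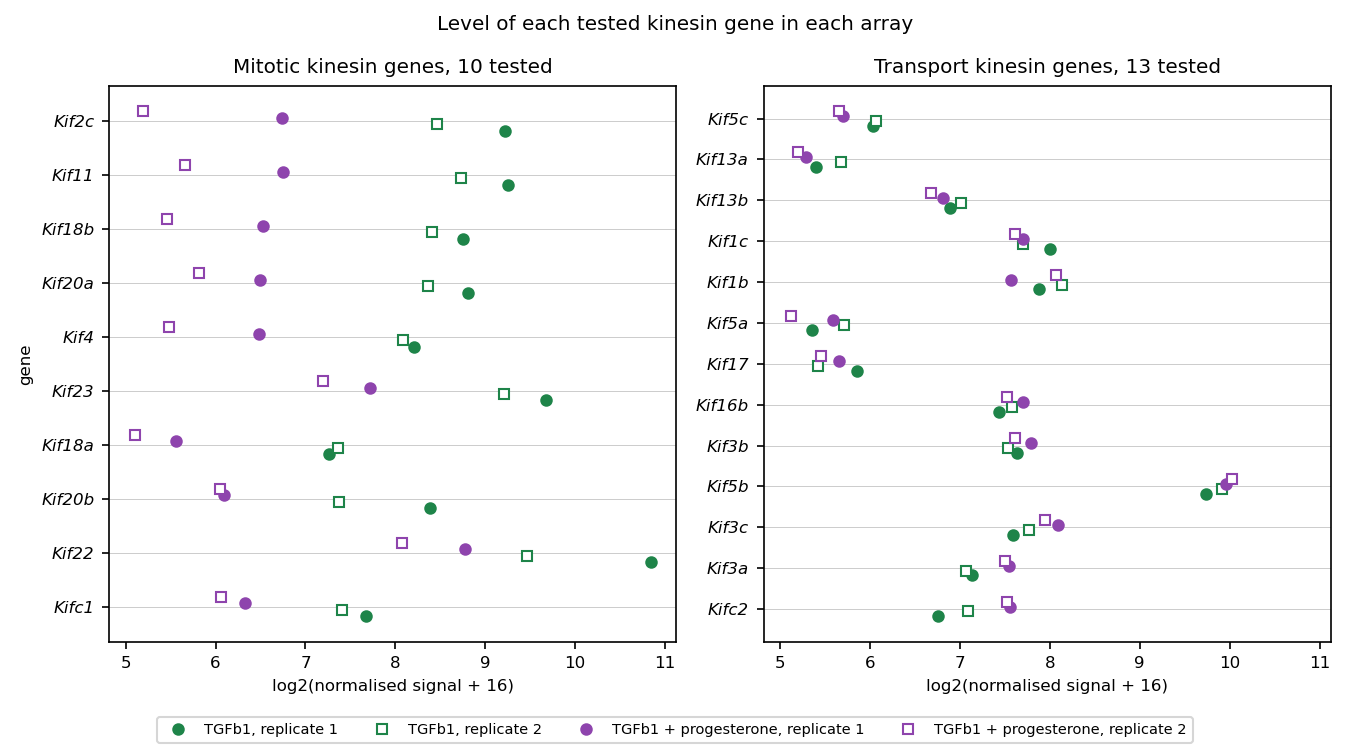
Normalised level of each tested kinesin gene in each array, as log2(signal + 16), with mitotic genes on the left and transport genes on the right. Green marks stand for TGFb1 alone and purple marks for TGFb1 plus progesterone, with filled circles for replicate 1 and open squares for replicate 2. In all 10 mitotic genes both purple marks lie left of both green marks, while the transport genes have purple marks on either side of the green ones.

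Among the motors that build the spindle, Kif11 fell most. It encodes Eg5, the plus-end motor that pushes the spindle poles apart. Its deposited signals were 688 and 439.5 with TGFb1 alone and 97.4 and 32.4 with progesterone. Both progesterone arrays lay far below both TGFb1 arrays. The log2 difference was -2.79 ± 0.34 (SE), which is 6.91-fold lower, with an adjusted p = 0.00346. Kifc1 encodes a minus-end motor that bundles spindle microtubules and draws the poles together. Its signals were 206 and 162 against 69.8 and 44.9, again without overlap, for a log2 difference of -1.35 ± 0.19 and an adjusted p = 0.00627. The Kifc1 probe set is of a type that can match related transcripts, and Kifc5b is a near-identical copy of Kifc1, so the split of signal between the 2 genes is uncertain. Kifc5b itself lay under the level limit and was not tested, with signals of 37.1 and 46.0 against 8.60 and 1.69. Kif15, a motor that can stand in for Eg5, also lay under the limit, and its signals of 9.25 and 27.0 against 11.1 and 13.6 overlapped between the groups.

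The Kif11, Kif4, Kifc1 and Kif18a promoters, from RefSeq for build GRCm38.p6, are shown because they hold motifs known from promoters of cell cycle genes. The Kif3c promoter, from a transport gene without a marked motif, is shown beside them. Each sequence is the 250 bases before the gene start, read 5′ to 3′ on the strand of the gene, and lies outside the annotated gene itself. Capitals mark TTTGAA, the core of the element through which many genes of late cell cycle are held down in resting cells, CCAAT, the box bound by NF-Y, or one of the E2F-type letters TTTGGCGC, TTTCGCGC, TTTCCCGC and TTTGCCGC, each on either strand.
Kif11, chr19:37376132-37376381 (+): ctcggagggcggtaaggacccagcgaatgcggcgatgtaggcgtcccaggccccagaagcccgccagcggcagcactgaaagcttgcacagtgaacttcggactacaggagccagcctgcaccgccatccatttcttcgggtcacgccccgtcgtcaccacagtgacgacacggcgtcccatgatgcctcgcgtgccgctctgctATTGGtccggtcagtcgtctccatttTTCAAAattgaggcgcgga
Kif4, chrX:100625815-100626064 (+): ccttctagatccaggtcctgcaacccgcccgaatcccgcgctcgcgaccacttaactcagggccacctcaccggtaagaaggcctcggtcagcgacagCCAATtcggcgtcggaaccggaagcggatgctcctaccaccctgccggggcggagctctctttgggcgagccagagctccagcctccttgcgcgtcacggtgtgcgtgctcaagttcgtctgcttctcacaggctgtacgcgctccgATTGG
Kifc1, chr17:33890634-33890883 (-): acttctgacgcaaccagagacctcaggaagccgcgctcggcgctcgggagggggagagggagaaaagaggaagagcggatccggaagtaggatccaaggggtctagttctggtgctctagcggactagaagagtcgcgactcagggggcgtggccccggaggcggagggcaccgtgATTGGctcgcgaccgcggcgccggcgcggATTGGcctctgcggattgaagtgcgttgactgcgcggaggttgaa
Kif18a, chr2:109280488-109280737 (+): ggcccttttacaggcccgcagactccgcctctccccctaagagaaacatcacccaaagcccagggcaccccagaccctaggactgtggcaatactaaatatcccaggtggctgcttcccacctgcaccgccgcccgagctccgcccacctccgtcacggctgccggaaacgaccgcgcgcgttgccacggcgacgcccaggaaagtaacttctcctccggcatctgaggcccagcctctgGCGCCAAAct
Kif3c, chr12:3364882-3365131 (+): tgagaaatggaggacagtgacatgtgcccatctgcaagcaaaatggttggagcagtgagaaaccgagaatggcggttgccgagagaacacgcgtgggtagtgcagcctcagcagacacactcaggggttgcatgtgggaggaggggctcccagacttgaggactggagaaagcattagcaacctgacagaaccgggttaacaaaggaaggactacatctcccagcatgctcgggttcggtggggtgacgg

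In Kif11 the TTTGAA match begins 19 bases and the CCAAT match 45 bases before the start. Kifc1 has CCAAT matches 74 and 45 bases before its start, and Kif4 has them 152 and 5 bases before. Kif18a holds neither, but has E2F-type letters that begin 10 bases before its start. Promoters were in the table for 33 of the 41 kinesin genes. TTTGAA, searched on both strands, was present in the 250 bases of 5 of 13 mitotic, 1 of 10 transport and 2 of 10 other kinesin genes, against 18.26% of all 27025 genes in the table. Among genes tested for expression it was in 3 of 9 mitotic and 0 of 9 transport genes. The mitotic matches include Kif14 and Kif15, which were not tested. Unlike the printed windows, those of Kif2c, Kif14 and Kif22 overlap their own annotated gene. CCAAT was present in 9 of 13 mitotic, 3 of 10 transport and 4 of 10 other kinesin genes, against 37.49% of all genes. Among tested genes it was in 6 of 9 mitotic and 3 of 9 transport genes. The E2F-type letters were present in 2 of 13 mitotic and 0 of 10 transport genes, against 2.157%, and in 1 of 9 tested mitotic genes. The GC box GGCGGG, not marked in the sequences, was in 6 of 13 mitotic and 6 of 10 transport genes, against 35.05%. Among the kinesin promoters 1 CCAAT match overlapped a GC box, and no other pair of these motifs overlapped. These matches describe the letters only, and a window without a match says nothing of the factor.

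Of the kinesins that shorten microtubules or limit their growth at the ends, Kif2c, Kif18a and Kif18b fell, whereas Kif2a did not pass and Kif2b was not tested. Kif2c encodes MCAK, the depolymerase of the centromere that corrects faulty attachments of chromosomes to the spindle. Its deposited signals were 669 and 361 with TGFb1 alone against 96.9 and 20.2 with progesterone. Its groups did not overlap, and the progesterone arrays differed widely from each other. The log2 difference was -2.87 ± 0.47, or 7.31-fold lower, with an adjusted p = 0.0111. With the mean of all its probe sets the difference was -1.86. The Kif2c probe set used, like that of Kif22, is of a type that can match related transcripts. The other Kif2c probe sets were at -2.22, -2.17 and, for a dim one, -0.19. Kif18b shortens the astral microtubules that reach the cell cortex. It had signals of 475 and 348 against 81.6 and 26.6, and fell by 2.59 ± 0.32 on the log2 scale (adjusted p = 0.00394). Kif18a holds chromosomes at the spindle equator by limiting the growth of kinetochore microtubules. It had signals of 148 and 157 against 36.2 and 18.01, and fell by 1.98 ± 0.22 (adjusted p = 0.00262), and its difference was -1.22 with a pseudocount of 64. The TGFb1 arrays lay close together for Kif18a, and both progesterone arrays were clearly lower. Kif2b, another depolymerase, had signals of 1.20 and 0.638 against 2.64 and 1.93, far under the level limit, and was not tested.

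Both chromokinesins, motors that ride on chromosome arms, fell. Kif4 organises condensed chromosomes and sets the length of the midzone together with Prc1. Its signals were 313 and 274 with TGFb1 alone against 79.0 and 27.3 with progesterone, with the groups far apart, and the log2 difference was -2.16 ± 0.30 (adjusted p = 0.00619). It is the mitotic member on the X chromosome, where the groups also differed in Xist. Kif22 encodes Kid, which pushes chromosome arms away from the poles. It had signals of 2186 and 748 against 424 and 201, so 1 TGFb1 array stood well above the other. Its log2 difference was -1.72 ± 0.41, with an adjusted p = 0.0452. The difference was -1.02 without TGFb1 replicate 1, the brighter of the 2, and -2.40 without TGFb1 replicate 2. Kif22 did not pass when either progesterone array was left out (adjusted p = 0.0643 without replicate 1 and 0.266 without replicate 2).

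The motors of cytokinesis fell together. Kif23 forms centralspindlin with Racgap1 and bundles the midzone. Its signals were 928 and 622 with TGFb1 alone against 199 and 108 with progesterone, and it fell by 1.98 ± 0.22 (adjusted p = 0.00249). Kif20a brings the chromosomal passenger complex to the midzone. It had signals of 494 and 337 against 80.1 and 36.9, and fell by 2.43 ± 0.25 (adjusted p = 0.00224). Kif20b acts at the midzone late in division. It had signals of 362 and 158 against 58.0 and 44.5, and fell by 1.81 ± 0.31 (adjusted p = 0.0128). For each of these 3 genes the lower TGFb1 array still lay above the higher progesterone array. Kif20b had an adjusted p = 0.0503 without progesterone replicate 1 and 0.0781 without progesterone replicate 2. Kif14, which works with citron kinase at the midbody, lay under the level limit at 13.3 and 16.8 against 8.40 and 5.68 and was not tested.

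**Figure D2:**
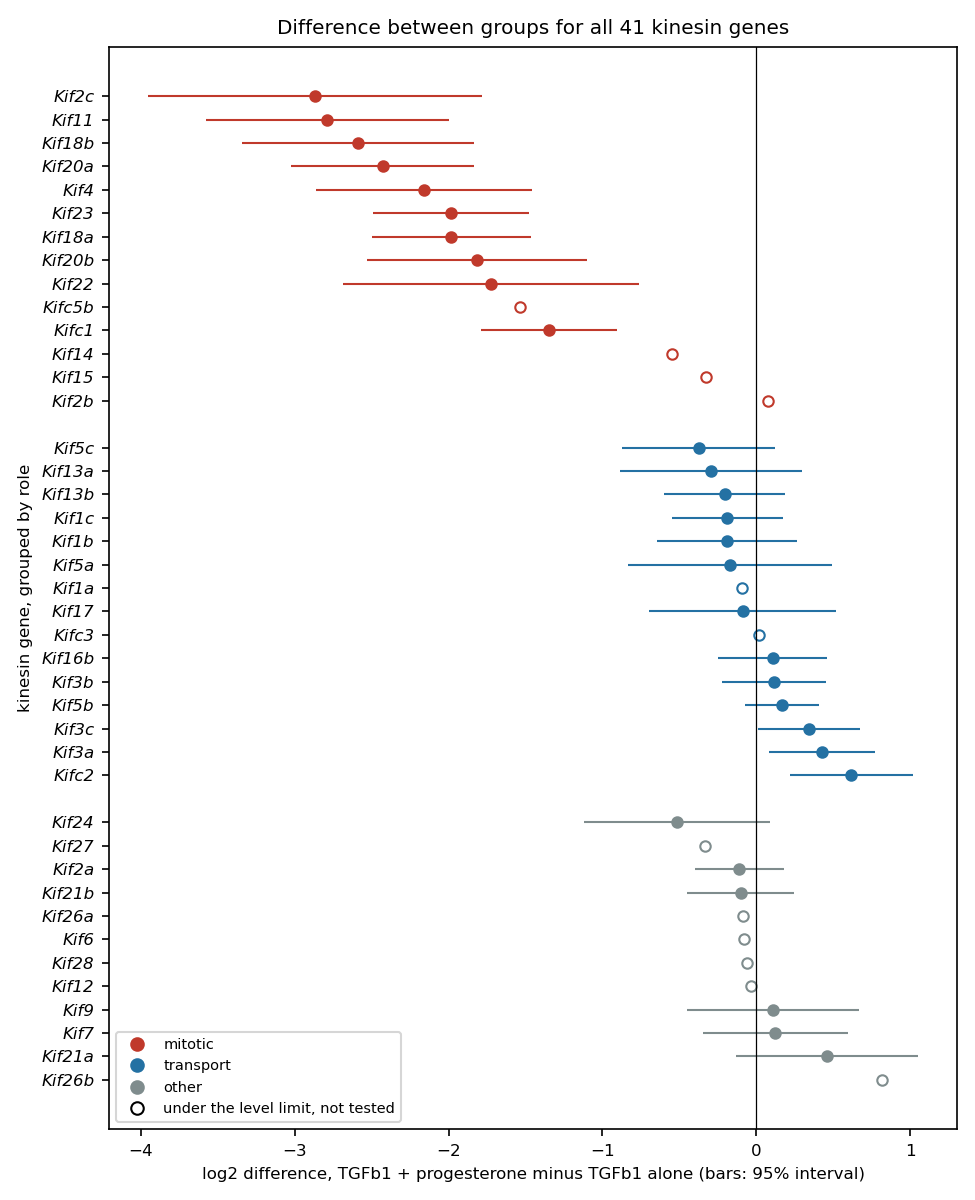
Log2 difference between TGFb1 plus progesterone and TGFb1 alone for all 41 kinesin genes, grouped as mitotic, transport and other, with bars for the 95% interval of the limma fit, not adjusted for the number of genes. Open circles are genes under the level limit, shown without an interval. The intervals of the 10 mitotic genes tested all end below -0.76, and those of the transport genes lie between -0.89 and 1.02.

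The mitotic genes also differed between replicates of the same group, mostly in the same direction. Normalised levels were higher in TGFb1 replicate 1 than in replicate 2 for 9 of 10 mitotic genes, with a median difference of 0.45, against -0.03 over all genes tested. They were higher in progesterone replicate 1 than in replicate 2 for 10 of 10, with a median difference of 0.70, against -0.0048 over all genes. The median level of the 10 genes was 8.78 and 8.39 with TGFb1 alone, against 6.51 and 5.74 with progesterone. Even so, the lower TGFb1 array exceeded the higher progesterone array by at least 0.68 in every mitotic gene tested. Over the 13 transport genes the medians were 7.13, 7.09, 7.56 and 7.52 in the same order. The median level of a list depends on which gene stands in the middle, so these array medians and the median of the gene differences need not match.

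**Figure D3:**
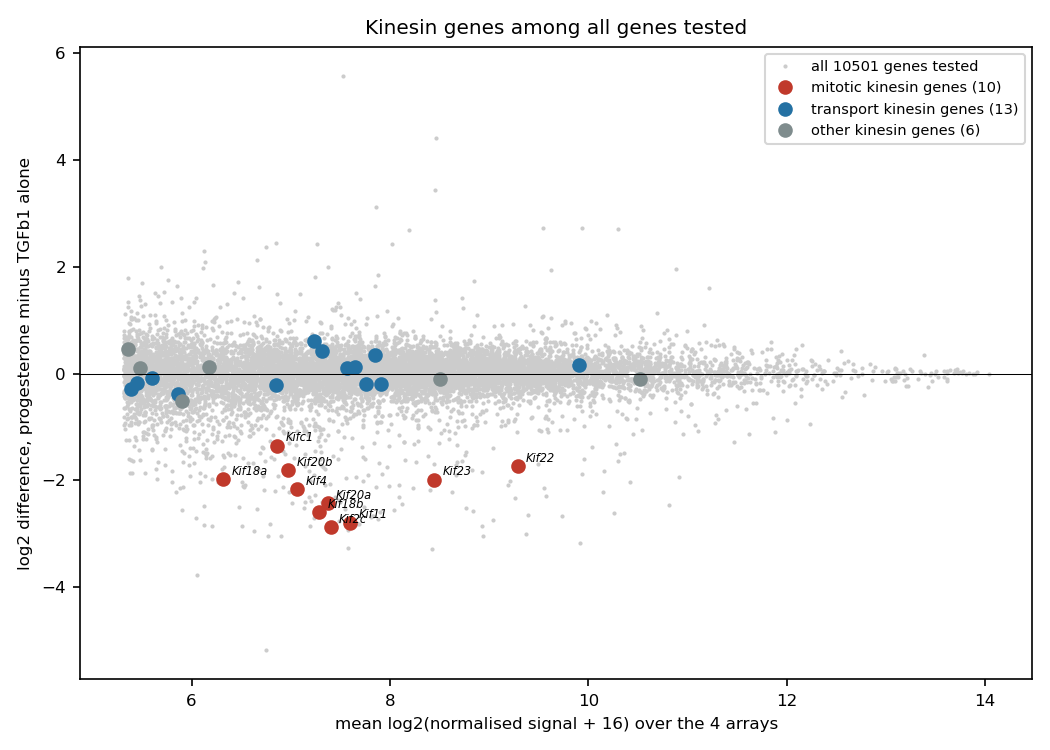
Mean level over the 4 arrays against the log2 difference for all 10501 genes tested (small grey points), with mitotic kinesin genes in red, transport in blue and other kinesins in dark grey. The 10 mitotic genes lie between -2.87 and -1.35, below most of the grey cloud, and the 13 transport genes lie within it.

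Among the transport kinesins no difference passed the test, and the split between negative and positive differences depended on the scaling. Of the 13 genes tested, 7 had a negative and 6 a positive difference, but 10 were negative with the values as deposited and 11 with centring. As reported they ran from -0.37 for Kif5c to 0.62 for Kifc2, with adjusted p from 0.0747 to 0.875. The groups did not overlap in 3 genes that were lower and in 4 that were higher with progesterone, while 26% of all genes were lower and 29.8% higher without overlap. The 95% intervals of the 13 genes, not adjusted for the number of genes, reached from -0.89 to 1.02 after normalisation. The mitotic differences themselves, from -2.87 to -1.35, lay outside this range, but the interval of Kif22 ended within it, at -0.76. Kif13a, Kif5a and Kif17 were dim, at mean log2 levels of 5.54, 5.53 and 5.64 with TGFb1 alone, and the scale shrinks their differences. A fall as large as the mitotic median of -2.07 could therefore not have shown in these dim genes.

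The heavy chains of conventional kinesin carry mitochondria, vesicles and granules together with kinesin light chains. Kif5b, the form found in most tissues, had deposited signals of 976 and 1026 with TGFb1 alone and 958 and 773 with progesterone. As deposited, both progesterone arrays lay below both TGFb1 arrays, whereas after normalisation they lay above them. The log2 difference was 0.17 ± 0.10 (adjusted p = 0.366), but it was -0.21 with the values as deposited and -0.34 with centring, so its direction depends on the scaling. Kif5c had 50.02 and 50.6 against 41.6 and 32.0, both progesterone arrays the lower ones, and a difference of -0.37 ± 0.21 (adjusted p = 0.330). Kif5a, best known from neurons, was dim at 23.0 and 34.6 against 37.4 and 18.5, and its groups overlapped (-0.17 ± 0.28, adjusted p = 0.758).

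Kif1b and Kif1c, relatives that carry vesicles and mitochondria, had nearly equal differences. Kif1b had signals of 243 and 285 with TGFb1 alone and 177 and 202 with progesterone, and a log2 difference of -0.19 ± 0.20 (adjusted p = 0.597). Kif1c had 268 and 205 against 197 and 147, and also -0.19 ± 0.15 (adjusted p = 0.498). In both genes the progesterone arrays were the dimmer ones as deposited, and the normalised groups overlapped. Kif1b and Kif1c were the transport genes that passed with each array centred on its median, at -0.57 and -0.55. In that setting the median of all genes was -0.34, and 34.6% of all genes passed as lower. Kif1a, a motor of synaptic vesicle precursors, lay under the level limit at 2.10 and 16.7 against 12.7 and 5.01 and was not tested.

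Of the kinesins that carry endosomes, none passed. Kif13b, which binds the polarity scaffold Dlg, had signals of 109 and 118 with TGFb1 alone and 102 and 74.1 with progesterone, a difference of -0.21 ± 0.17 (adjusted p = 0.5001). Kif13a, a motor of recycling endosomes, had 24.6 and 33.3 against 27.2 and 20.4, a difference of -0.30 ± 0.25 (adjusted p = 0.522). Kif13a was the transport gene that passed the level limit only through the TGFb1 arrays, with a mean log2 level of 5.39 close to the limit of 5.32. Kif16b, a motor of early endosomes, had 170.3 and 188 against 197 and 137, and a difference of 0.11 ± 0.15 (adjusted p = 0.713), which was negative with the values as deposited. Its groups overlapped, whereas after normalisation those of Kif13a and Kif13b did not.

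Kif3a and Kif3b form a heterotrimeric motor with the adaptor Kifap3, and Kif3c is a further partner chain. All 3 genes had positive differences after normalisation, and Kif3b turned negative with the values as deposited. Kif3a had signals of 134 and 123 with TGFb1 alone and 175 and 136 with progesterone, both progesterone arrays being higher, with a difference of 0.43 ± 0.15 (adjusted p = 0.131). The Kif3a value rests on the choice of probe set, being 0.14 for the probe set with the highest mean before logs. It was -0.12 without TGFb1 replicate 1, in a fit that chose the probe set again from the arrays left. In the reported probe set the normalised levels were 7.13 and 7.07 with TGFb1 alone against 7.55 and 7.51 with progesterone. Kif3c had 193 and 215 against 258 and 186, a difference of 0.34 ± 0.14 (adjusted p = 0.198). The Kif3c groups overlapped as deposited, and its difference was 0.10 as deposited and -0.02 with centring, so it too has no direction that every scaling shares. Kif3b had 199.9 and 181 against 209.6 and 146, overlapping, and a difference of 0.12 ± 0.15 (adjusted p = 0.673). Kif17, a relative known from cilia and dendrites, had 41.8 and 25.01 against 39.8 and 26.5, overlapping as well (-0.09 ± 0.26, adjusted p = 0.875).

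The minus-end transport motor Kifc2 came closest to a call. Its signals were 97.4 and 126 with TGFb1 alone and 177 and 137 with progesterone, so both progesterone arrays lay above both TGFb1 arrays. The log2 difference was 0.62 ± 0.17, with an interval of 0.22 to 1.02 and an adjusted p = 0.0747. The Kifc2 difference was 0.77 without TGFb1 replicate 2. It was smaller with the values as deposited (0.44, adjusted p = 0.295), with centring (0.31, 0.195) and with the mean of probe sets (0.48, 0.157). The other Kifc2 probe set overlapped between the groups, at 0.33 (adjusted p = 0.480 with 1 test per probe set). Kifc3, another minus-end motor, lay just under the level limit at a mean log2 level of 5.21, with signals of 14.3 and 24.6 against 36.7 and 13.0, and was not tested.

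Kinesins with other or mixed roles did not pass either. Of these 12 genes 6 were tested, with a median difference of 0.00 and 0 calls in limma. Of all genes tested 8.16% passed, and 0 among 6 is near that share. Kif2a, a close relative of Kif2c that also acts in resting cells, had signals of 389 and 412 with TGFb1 alone and 325 and 269.8 with progesterone, a difference of -0.11 ± 0.12 (adjusted p = 0.636). The interval of Kif2a, -0.40 to 0.18, does not reach that of Kif2c, whose upper end was -1.78. Kif21b, which restrains microtubule growth and is abundant in lymphocytes, had 1555 and 1878 against 1241 and 1144, a difference of -0.10 ± 0.15 (adjusted p = 0.725). Kif2a and Kif21b were called lower with centring, where 34.6% of all genes were. Kif24, a motor of the centrioles, had 71.6 and 42.9 against 33.5 and 36.5, both progesterone arrays the lower ones, and a difference of -0.51 ± 0.26 (adjusted p = 0.273). The ciliary kinesins Kif7, at 53.2 and 53.0 against 70.8 and 47.3, and Kif9, at 25.7 and 24.8 against 32.8 and 30.8, had adjusted p of 0.757 and 0.826. Kif21a had 17.4 and 17.4 against 41.9 and 26.9 and passed the level limit only through the progesterone arrays, with a mean log2 level of 5.36 and an adjusted p = 0.315. Kif6, Kif12, Kif26a, Kif26b, Kif27 and Kif28 lay under the limit. Kif26b had the largest difference among these, at signals of 3.71 and 1.19 against 18.9 and 17.996, all of them dim.

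Other probe sets of the mitotic genes shared the direction. In a fit with 1 test for each of 22518 probe sets, which was added after the values had been seen and in which 5.99% passed, 19 of the 27 mitotic kinesin probe sets lay above the level limit. All 19 had a negative difference, and 17 passed, at least 1 in each of the 10 genes. The 3 Kif11 probe sets ranged from -2.79 to -2.08, and both Kif23 probe sets were at -2.49 and -1.98. The exceptions were a dim Kif2c probe set and the brightest probe set of Kif22. The former had signals of 40.4 and 28.5 with TGFb1 alone and 31.0 and 29.7 with progesterone, a difference of -0.19 (adjusted p = 0.688), while the other Kif2c probe sets were at -2.22 and -2.17. The latter had an adjusted p = 0.0503 in this fit, while the other Kif22 probe sets, at 1023 and 582 against 135 and 77.2 and at 552 and 298 against 77.9 and 48.6, were at -2.49 and -2.26.

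Of the 54 transport probe sets 33 lay above the level limit, 17 of them with a negative difference, and 1 passed. It belongs to Kif5b. Its signals were 171 and 237 with TGFb1 alone and 359 and 350.2 with progesterone, both progesterone arrays being higher, with a difference of 1.04 ± 0.19 (adjusted p = 0.0202). The other 5 Kif5b probe sets ran from -0.10 to 0.34, so the probe sets of this gene disagree. The 6 probe sets of Kif1b ran from -0.51 to -0.11, and those of Kif3a from -0.13 to 0.43. Of the 23 probe sets of other kinesins 10 lay above the limit and none passed.

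**Figure D4:**
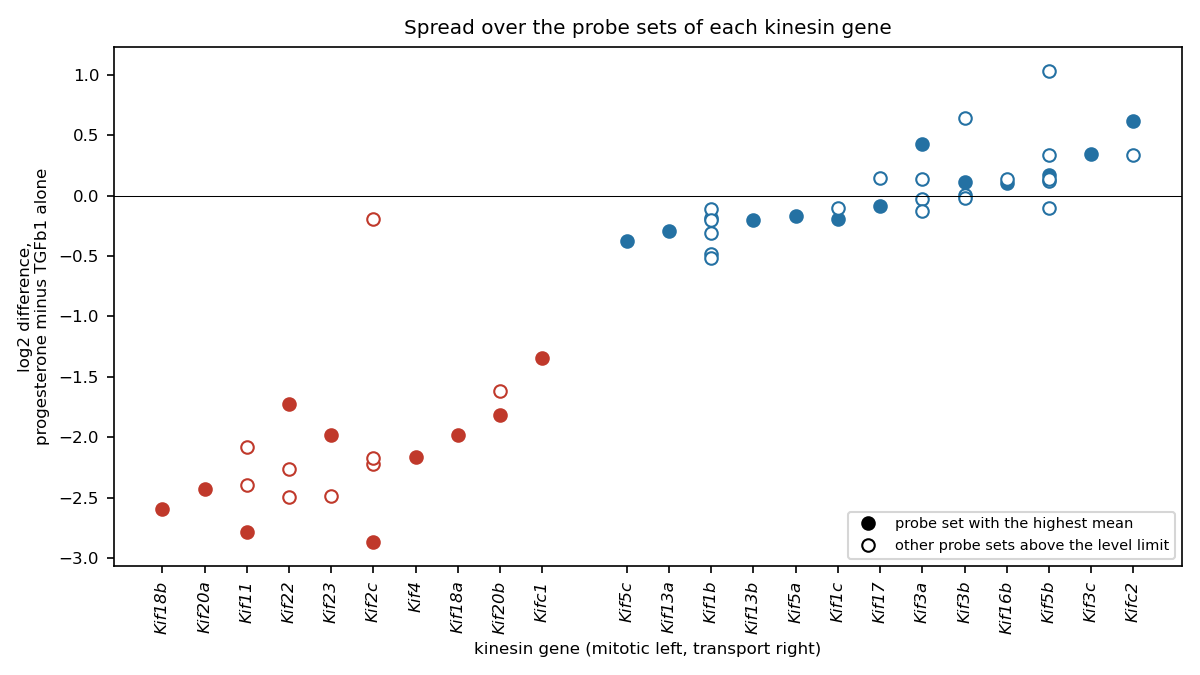
Log2 difference of every probe set above the level limit for the tested mitotic (red, left) and transport (blue, right) kinesin genes, with filled circles for the probe set that represents the gene and open circles for its other probe sets. One Kif2c probe set at -0.19 lies apart from the rest of the mitotic genes, and 1 Kif5b probe set at 1.04 lies above the other transport probe sets.

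Transcripts of genes whose proteins work with the mitotic kinesins were lower too. Of the 19 partner genes tested 18 fell, against 5.17% of all genes tested, with a median of -2.58, and the list was chosen with earlier results of these data known. Nusap1, which bundles spindle microtubules, had signals of 2635 and 1724 with TGFb1 alone and 292 and 134 with progesterone, and fell by 2.999 ± 0.25 (adjusted p = 0.00153). Birc5 and Cdca8, members of the chromosomal passenger complex that Kif20a carries, fell, with differences of -3.04 ± 0.27 and -3.28 ± 0.34. Ect2, which cells need for cytokinesis, had 577 and 339 against 77.7 and 47.0 and fell by 2.41 ± 0.23. For all of these the groups lay far apart. Racgap1, the partner of Kif23 in centralspindlin, fell by 2.09 ± 0.22, and Prc1, the partner of Kif4, had a difference of -2.14 ± 0.29 (adjusted p = 0.00507). Cenpe, a kinetochore kinesin whose symbol lacks the Kif prefix, had 391 and 225 against 99.8 and 47.7 and fell by 1.71 ± 0.28 (adjusted p = 0.0111). The Cenpe call was lost without progesterone replicate 2 (adjusted p = 0.0674) and without the intensity trend (0.0505). Cit, the citron kinase bound by Kif14, did not pass (-0.46 ± 0.17, adjusted p = 0.151). Mki67, a marker of proliferating cells, had 3131 and 1911 against 431 and 193 and fell by 2.66 ± 0.27 (adjusted p = 0.00214).

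Of the adaptors and light chains of the transport kinesins 14 genes were tested and 1 fell, with a median of 0.06. This share is near the 5.17% of all genes that fell. It was Klc3, a kinesin light chain, with signals of 359 and 272 with TGFb1 alone and 186 and 130 with progesterone and a difference of -0.70 ± 0.16 (adjusted p = 0.0378). Klc3 did not pass when TGFb1 replicate 1 was left out (adjusted p = 0.117) nor when either progesterone array was (0.114 and 0.265). After Klc3 the largest statistics were those of Kifbp, Fez2 and Rhot1, which did not pass. Their differences were 0.29 ± 0.13, -0.44 ± 0.23 and 0.22 ± 0.12, with adjusted p of 0.239, 0.290 and 0.299. Klc1, at -0.02 ± 0.13, Trak1, which links Kif5 motors to mitochondria, at -0.07 ± 0.14, and Kifap3, the adaptor of the Kif3 motors, at 0.19 ± 0.19, had adjusted p of 0.939, 0.816 and 0.572. Genes of dynein and dynactin, the minus-end motor complex, had a median of -0.01, and 1 of 18 tested fell, again a share near 5.17%. That gene was Nde1, a regulator of dynein that also serves mitosis, with signals of 629 and 410 against 229 and 177 and a difference of -0.99 ± 0.17 (adjusted p = 0.0145). The Nde1 call was lost without progesterone replicate 1 (adjusted p = 0.0757) and without replicate 2 (0.113). Bicd2 had the next largest statistic of this list, at 0.42 ± 0.13, and did not pass (adjusted p = 0.104). With centring 12 of the 18 passed as lower, where 34.6% of all genes did.

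Tubulins, the building blocks of the track itself, were lower in part. Of 11 tested 7 fell, against 5.17% of all genes tested, with a median of -1.01. Tubb4b had signals of 2283 and 2187 with TGFb1 alone and 792 and 566 with progesterone, and fell by 1.32 ± 0.09 (adjusted p = 0.00134), and its difference was -0.51 with the mean of its probe sets. Differences were -2.02 ± 0.20 for Tubb2b, -0.85 ± 0.09 for Tuba1a and -1.09 ± 0.18 for Tubb5, which also fell. In each of these the progesterone arrays lay below the TGFb1 arrays. Tuba4a, at -0.09 ± 0.10, did not pass (adjusted p = 0.623). The count was 4 without progesterone replicate 2, 5 without progesterone replicate 1 or TGFb1 replicate 1, 4 without a level limit, and 11 with centring, where 34.6% of all genes were lower. Tubulin genes are close in sequence, so signal may be shared between them.

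Markers of the cultured cells and of other cell types were read beside these results. Of 7 CD4 T cell markers tested, 0 passed in limma, which is near the share of 8.16% of all genes tested. Cd4, Cd2 and Cd5 had negative differences, at -0.34, -0.21 and -0.21, and Cd3d, Cd3e, Cd3g and Cd28 positive ones, from 0.05 to 0.13. The summed deposited signal of the list was 32361 and 29877 with TGFb1 alone and 26049.5 and 20429 with progesterone. Cd4 and the Cd3 chains were bright in all 4 arrays. With centring 6 of the 7 passed as lower, where 34.6% of all genes did. With the values as deposited 1 did, Cd4, where 7.57% of all genes did. Macrophage and monocyte markers summed to 366 and 189.7 against 856 and 781, and 1 of 5 rose, where 314 of all 10501 genes tested did. It was Lyz2, at 189 and 53.5 against 676 and 588 (2.69 ± 0.39, adjusted p = 0.00726), and the summed rise came mostly from its signal. Cd68, Adgre1 and Csf1r had differences of 0.66, 0.57 and 0.17 and Itgam one of -0.81, and none of these passed. The Lyz2 call was lost without progesterone replicate 2 (adjusted p = 0.0563). Of erythroid and platelet markers 2 of 2 tested rose, with summed signals of 114 and 50.6 against 628 and 633, led by Pf4 at 3.12 ± 0.26. The second, Ppbp, did not pass without TGFb1 replicate 2 (adjusted p = 0.0650). The stromal marker Pecam1, which leucocytes also express, was the 1 tested of 3 and fell by 0.97 ± 0.17, a call that was lost without progesterone replicate 1 (adjusted p = 0.102) or replicate 2 (0.0670). Markers of CD8 T cells (summed signals 149 and 174 against 166 and 91.2), B cells (104 and 73.0 against 189.5 and 87.0), dendritic cells (72.2 and 90.2 against 143 and 70.6), NK cells (244 and 179 against 134 and 100.2) and mast cells and basophils (1529 and 928 against 882 and 894) had 0 calls among the 2, 2, 2, 1 and 3 tested. Over all genes tested 8.16% passed in either direction and 5.17% fell, and 0 calls in such short lists is near those shares. The NK marker Klrk1 (-0.76 ± 0.19, adjusted p = 0.0531) passed as lower in several other settings, the values as deposited, centring and the fit without TGFb1 replicate 2 among them. Of the mast cell markers, Cpa3 passed as lower with centring or without TGFb1 replicate 2, and Fcer1a as higher without TGFb1 replicate 1. The part of other cells in the fall of the mitotic kinesin genes was not tested.

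**Figure D5:**
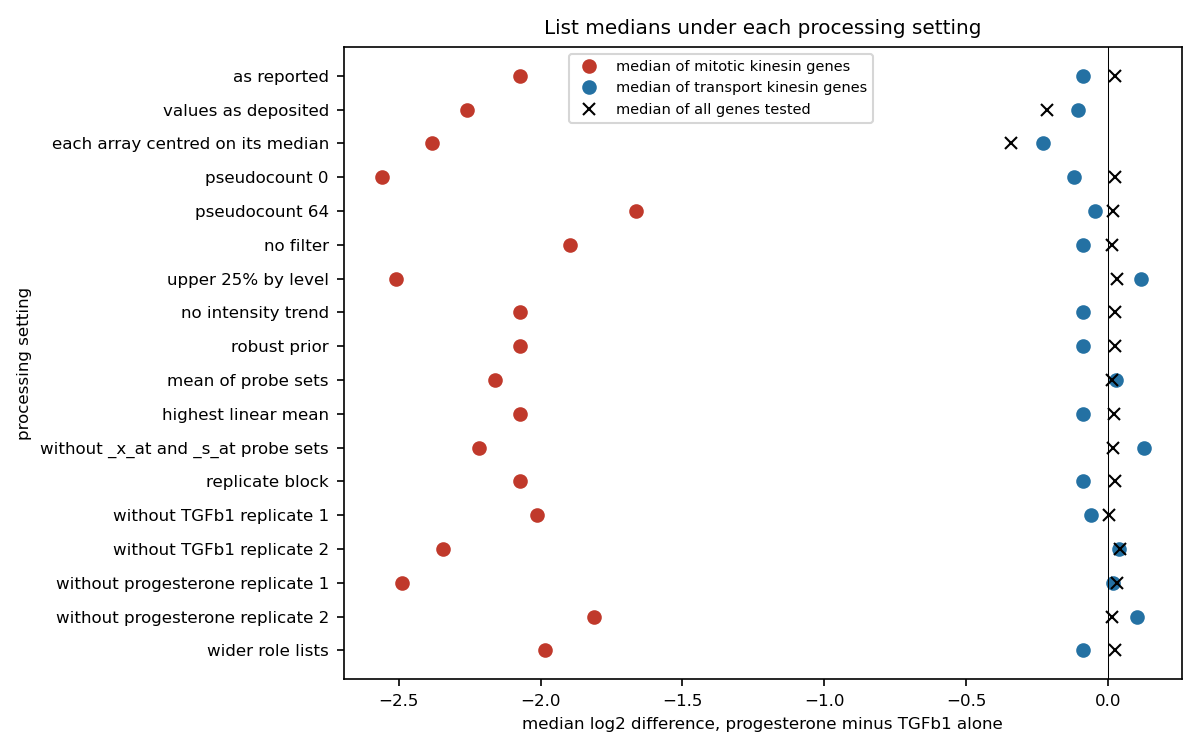
Median log2 difference of the mitotic kinesin genes (red), the transport kinesin genes (blue) and all genes tested (crosses) under each processing setting. The mitotic median stays between -2.56 and -1.66, while the transport median lies between -0.23 and 0.12 and crosses 0.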

How the data were processed

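Cultured CD4+ T cells from mice gave 4 RNA samples, each read on an array of 45101 probe sets. Per the submitters' processing notes, the deposited values come from MAS5, and they are signal intensity on a linear scale. How the authors scaled them is not stated, and detection calls were not used, so dim signals have no stated limit. Only 4 arrays were made, which leaves 2 residual degrees of freedom and limits the precision.

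The 64 control probe sets were left out. Symbols were updated through Entrez identifiers from RefSeq genes of GRCm38.p6, which matched 34741 probe sets. Of the remaining 45037 probe sets, 34945 had 1 gene, 932 several and 9160 none. Arrays were quantile normalised and taken as log2(signal + 16). Probe sets above the median level of all were kept, 22518 in number, with 1 per gene, the one with the highest mean. Groups were compared without covariates in R 4.3.3 by limma 3.58.1, using lmFit and then eBayes with its trend option. Benjamini-Hochberg adjustment ran over 10501 genes, with a threshold of 0.05. The procedure was tested on simulated data. Every adjusted p comes from this test unless another setting is named.

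Values are given for every tested mitotic and transport kinesin, and from each partner list for the members with the largest moderated statistic and for named partners of a kinesin, some of which were picked after their values were seen. Members, roles and lists were chosen with earlier results of these data known. Alternatives changed the scaling, pseudocount, level filter, variance model, probe set rule, role lists and threshold, added the replicate number as a block, or left out each array. Promoter sequences came from a RefSeq table, and 8 kinesin genes without an entry were not searched.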

Additional observations from a re-analysis of the deposited data

How the results depend on the processing

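All 10 mitotic kinesin genes kept a negative difference under every setting that tested them. Their count lower was 10 except with the upper 25% of probe sets by level (5, of 6 tested), without the intensity trend (7), with a robust prior (8), without _x_at and _s_at probe sets (9, of 9 tested), at a threshold of 0.01 (7) and with single arrays left out (8 to 10). With no filter it was 10 of 14, with Kifc5b in and Kif22 out. Among the 10 genes only Kif22, Kif20b and Kif2c lost their call in any setting, Kif22 having an adjusted p of 0.120 with no filter, 0.0541 in the upper 25%, 0.134 without the trend and 0.225 with the robust prior. The mitotic median was -2.56 with a pseudocount of 0 and -2.51 in the upper 25%. The transport median was -0.23 with centring, -0.12 and -0.048 with pseudocounts of 0 and 64, 0.12 in the upper 25%, 0.027 with the mean of probe sets, 0.12 without _x_at and _s_at probe sets, and -0.060 to 0.10 with single arrays left out, so it has no settled sign. The mitotic minus the transport median was -1.98 as reported, -2.44 with a pseudocount of 0, -2.63 in the upper 25% and -2.50 to -1.91 with single arrays left out.

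The transport count was 2 with centring, 1 at a threshold of 0.1 (Kifc2) and 0 to 1 with single arrays left out. Labels do not say that replicate numbers pair the arrays, and same-numbered arrays correlated at r = 0.205 in their deviations over genes, from 2 pairs. With the replicate block the transport count was 1 (Kifc2, adjusted p = 0.0151), the mitotic count 10 and the count of all genes 1936. That count, 857 as reported, was 3779 with centring, 488 with no filter, 464 without the trend, 308 and 1362 at thresholds of 0.01 and 0.1, 1348 over probe sets (added after the data were seen), and 246 to 1215 with single arrays left out, lowest without progesterone replicate 2 (407 without replicate 1). Fits without 1 array take the other array of that group to vary as the pair of the other group does.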
